A study of Mus musculus with 18 samples.

Results

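The transcripts of 4 mouse genes, Cubn, Amn, Lrp2 and Dab2, were followed through 18 single-colour Affymetrix arrays of AB1 embryonic stem (ES) cells. They were read through the probe sets annotated to these symbols, 10 of 45101, and 9 of the 10 passed the filter on dim signal. As genes they were 4 of 18194, and all 4 were among the 11388 tested. Knockout cells carried a disruption of both copies of Cyp26a1, whose enzyme oxidises retinoic acid (RA) to less active products, and the other cells were wild type. Each genotype had 1 array of control cells kept without leukemia inhibitory factor (LIF) for 8 h, 3 of control cells with LIF for 8 h, 3 of cells given 100 nM RA with LIF for 8 h, and 2 of cells given 100 nM RA with LIF for 72 h. Mouse ES cells need LIF to stay undifferentiated in culture. The labels name no 72 h control, so RA and time cannot be told apart at 72 h. They name no clone, passage or separate culture either.

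The proteins encoded by these genes work together in uptake at the apical surface of absorptive epithelia, such as the kidney proximal tubule and the visceral endoderm that surrounds the early mouse embryo. Cubilin (Cubn) is a large surface receptor without a transmembrane segment that binds vitamin B12 with intrinsic factor, apolipoprotein A-I and other ligands, and amnionless (Amn) anchors it in the membrane and brings it to the cell surface. Megalin (Lrp2) is a giant receptor of the LDL receptor family, and Dab2 is the cytoplasmic adaptor that links such receptors to the clathrin coat.

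The start-site regions are shown because 3 of the genes rose at 72 h in both genotypes and Lrp2 was not called. Each RefSeq window (GRCm38.p6) runs 5′ to 3′ on the gene's strand, from 250 bases before the start to 50 after it. CpG dinucleotides are in capitals. Dab2 has 2 windows, and the others have 1 each.
Cubn, chr2:13491827-13492126, minus strand: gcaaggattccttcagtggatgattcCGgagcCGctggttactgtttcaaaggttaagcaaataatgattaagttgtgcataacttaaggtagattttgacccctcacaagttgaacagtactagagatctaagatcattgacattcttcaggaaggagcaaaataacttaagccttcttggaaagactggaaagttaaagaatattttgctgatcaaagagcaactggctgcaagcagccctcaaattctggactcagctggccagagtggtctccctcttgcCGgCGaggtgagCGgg
Amn, chr12:111270846-111271145, plus strand: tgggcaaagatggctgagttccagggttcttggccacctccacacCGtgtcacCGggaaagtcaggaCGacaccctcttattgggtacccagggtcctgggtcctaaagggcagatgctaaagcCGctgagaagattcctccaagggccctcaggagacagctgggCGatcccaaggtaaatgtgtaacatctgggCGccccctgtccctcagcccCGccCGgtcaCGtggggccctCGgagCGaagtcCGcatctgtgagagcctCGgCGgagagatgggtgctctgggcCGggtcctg
Lrp2, chr2:69585980-69586279, minus strand: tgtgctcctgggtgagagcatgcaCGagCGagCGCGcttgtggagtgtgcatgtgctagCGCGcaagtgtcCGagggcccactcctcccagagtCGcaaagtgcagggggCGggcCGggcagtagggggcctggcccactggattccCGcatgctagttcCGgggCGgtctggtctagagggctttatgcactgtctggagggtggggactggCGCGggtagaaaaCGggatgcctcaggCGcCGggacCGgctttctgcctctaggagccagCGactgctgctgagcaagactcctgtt
Dab2 window 1, chr15:6299539-6299838, plus strand: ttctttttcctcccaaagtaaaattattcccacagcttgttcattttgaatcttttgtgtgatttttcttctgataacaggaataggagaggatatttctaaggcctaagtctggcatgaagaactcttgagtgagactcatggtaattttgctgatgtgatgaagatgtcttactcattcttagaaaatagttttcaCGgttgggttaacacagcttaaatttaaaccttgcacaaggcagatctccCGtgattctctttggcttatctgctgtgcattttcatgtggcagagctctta
Dab2 window 2, chr15:6386498-6386797, plus strand: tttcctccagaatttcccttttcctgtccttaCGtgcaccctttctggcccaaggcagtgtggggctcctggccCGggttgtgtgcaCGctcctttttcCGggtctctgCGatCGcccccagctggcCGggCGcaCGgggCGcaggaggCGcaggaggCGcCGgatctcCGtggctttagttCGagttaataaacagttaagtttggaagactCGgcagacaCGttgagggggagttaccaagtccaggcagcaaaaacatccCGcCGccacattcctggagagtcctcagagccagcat
The windows differed in base composition. The Cubn window was 44.3% G or C with 5 CpG, and the first Dab2 window was 37.7% G or C with 2 CpG, against a median of 52.7% G or C over all 32841 windows. The Amn window (62.3%, 15 CpG), the Lrp2 window (65.0%, 20 CpG) and the second Dab2 window (59.3%, 19 CpG) lay above that median. Of the motifs searched on both strands, GATAA, the core of GATA factor sites, matched 2 times in the first Dab2 window, on the plus strand from position -178 and on the minus strand from position 15, where positions are counted from the start. GATAA occurred in 25.4% of all windows. Neither AGGTCA, the nuclear receptor half-site (16.3% of all windows), nor ACAAT, the core of SOX factor sites (31.0%), occurred in the 5 windows. A direct repeat of AGGTCA with 2 or 5 bases between the copies occurred in none of them, and each of these repeats occurred in 0.00913% of all windows. These matches describe letters in these windows only.

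Signal is given in intensity units, with every array at a trimmed mean of 500 units. Values under 50 units were set to that floor before log2 was taken, where 41.6% to 48.3% of an array's probe sets lay. The median signal of an array was 54.4 to 75.6 units. Log2 differences are given ± their standard error, and "called" means a limma adjusted p (Benjamini-Hochberg over all genes tested) below 0.05. Cyp26a1, the disrupted gene, had 193 to 216 units in knockout cells after 8 h of RA, against 637 to 1695 units in wild type, and 2873 and 3075 units in knockout after 72 h, against 3211 and 3402 units in wild type. The genotypes did not overlap at either time. The sources used here do not place its probe set inside or outside the disrupted stretch, so these levels are no check of the labels. Socs3, which LIF induces, had 4551 units on the knockout array and 3800 units on the wild-type array labelled without LIF. On the replicate 1 control arrays labelled with LIF it had 215 units in the knockout and 367 units in wild type, while the other 14 arrays had 2628 to 6001 units. The LIF labels of these replicate 1 arrays are therefore in doubt, and results that rest on them are also given without both replicate 1 control arrays.

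The label visceral endoderm was checked on 18 of its marker genes. Afp, Apoa1, Apoa4, Cer1 and Fgb, which encode secreted proteins typical of that tissue, were at the floor on all 18 arrays, and Ttr was above it on 1 array, at 101 units. Other markers of the list were above the floor on all 18 arrays, namely Rbp4 (107 to 397 units), Spink1 (190 to 1421 units), Hhex (304 to 841 units) and Rhox5 (72.5 to 3346 units), and Foxa1 reached 485 units. Because the list was split in this way, the 4 genes are called by their names. Among 15 markers of undifferentiated ES cells, the transcription factor Pou5f1 had 10090 units or more on every array, while Dppa3 ranged from 30.4 to 453 units and was at the floor on 1.

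The array levels of the 4 genes fell into different patterns, as the plot of signal by array shows.

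**Figure D1:**
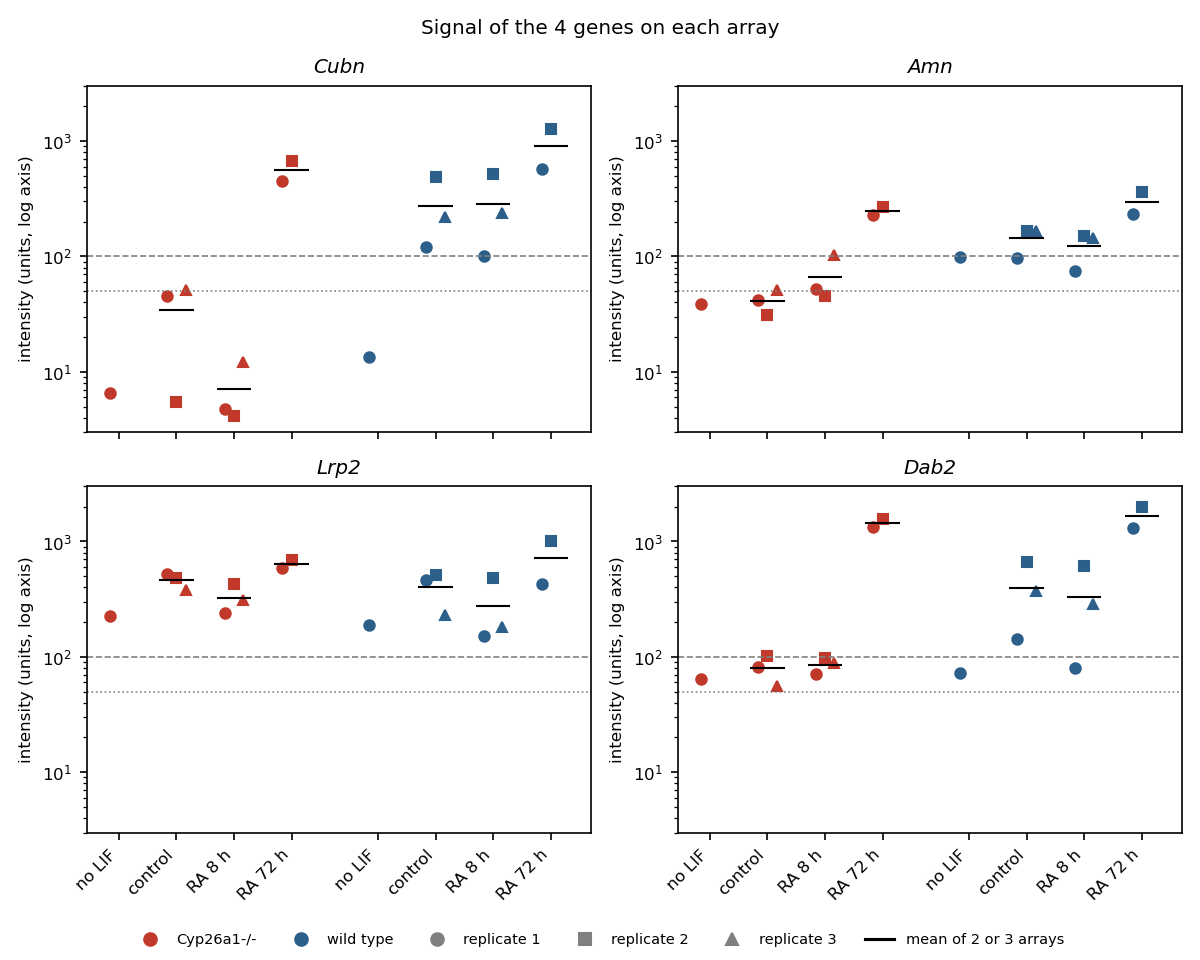
Signal of each gene's representative probe set on every array, in intensity units on a log axis, by genotype (knockout red, wild type blue) and group; symbols give the replicate number, black lines the mean of groups with 2 or 3 arrays, and grey lines the floor of 50 and the filter level of 100 units. The 2 arrays of knockout cells at 72 h of RA lie above every other knockout array for all 4 genes, and the wild-type 8 h arrays are spread widely for Cubn and Dab2.

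For Cubn, the ligand-binding receptor, knockout cells had 45.7, 5.45 and 51.6 units in control, 4.72, 4.17 and 12.2 units after 8 h of RA, and 452 and 666 units after 72 h. Wild-type cells had 121, 487 and 220 units in control, 101, 518 and 239 units after 8 h, and 570 and 1260 units after 72 h. Knockout cells were thus near or under the floor until 72 h, whereas wild-type cells were above 100 units on all 8 arrays with LIF. On the single arrays labelled without LIF, Cubn had 6.50 units in knockout and 13.4 units in wild type. These groups, knockout RA 8 h and knockout control had means under the floor and are given no order among themselves. Above them came wild-type control, wild-type RA 8 h, knockout RA 72 h and wild-type RA 72 h. Neighbours among these 4 overlapped, and knockout control lay below all of them without overlap.

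For Amn, the membrane partner of cubilin, knockout cells had 42.3, 31.2 and 50.7 units in control, 52.2, 45.7 and 103 units after 8 h of RA, and 230 and 270 units after 72 h. Wild-type cells had 97.7, 166 and 167 units in control, 74.6, 151 and 144 units after 8 h, and 234 and 360 units after 72 h. Every 72 h array was above every 8 h array, and the control groups of the genotypes did not overlap. Without LIF, Amn had 38.6 units in knockout and 99.5 units in wild type. Knockout without LIF and knockout control had means under the floor and are given no order. Above them knockout RA 8 h, wild type without LIF, wild-type RA 8 h and wild-type control overlapped from neighbour to neighbour. A gap separated them from knockout RA 72 h and wild-type RA 72 h, which overlapped.

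For Dab2, the clathrin adaptor, knockout cells had 81.8, 101 and 55.8 units in control, 70.8, 97.1 and 88.5 units after 8 h of RA, and 1341 and 1575 units after 72 h. Wild-type cells had 143, 667 and 372 units in control, 79.5, 618 and 288 units after 8 h, and 1313 and 2007 units after 72 h. The 72 h arrays stood well apart from all others. Among the other arrays, those of wild type with LIF varied most. Without LIF, Dab2 had 64.7 units in knockout and 72.3 units in wild type. These were the lowest of its group means, followed by knockout control, knockout RA 8 h, wild-type RA 8 h, wild-type control, knockout RA 72 h and wild-type RA 72 h. Neighbours in that order overlapped, except the single arrays without LIF, and wild-type control against knockout RA 72 h.

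Lrp2, the megalin receptor, was above 100 units on all 18 arrays. Knockout cells had 520, 485 and 379 units in control, 239, 428 and 310 units after 8 h of RA, and 590 and 685 units after 72 h. Wild-type cells had 465, 512 and 230 units in control, 151, 486 and 183 units after 8 h, and 429 and 1008 units after 72 h. The genotypes overlapped at each stage, and in wild type the 72 h range overlapped the control range. Without LIF, Lrp2 had 225 units in knockout and 189 units in wild type. Wild type without LIF had the lowest mean level, followed by knockout without LIF, wild-type RA 8 h, knockout RA 8 h, wild-type control, knockout control, knockout RA 72 h and wild-type RA 72 h. Neighbours overlapped except both groups without LIF, which are single arrays, and knockout control against knockout RA 72 h.

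After 72 h of RA, Cubn, Amn and Dab2 rose in both genotypes and Lrp2 was not called in either. In knockout cells the log2 difference from control was 4.23 ± 0.67 for Dab2, 18.8-fold (limma adjusted p = 0.000337). It was 3.44 ± 0.58 for Cubn (adjusted p = 0.000573) and 2.31 ± 0.37 for Amn (adjusted p = 0.000392), and for both 2 of the 3 control arrays lay at the floor. Both 72 h arrays were above all 3 control arrays for each of these genes. Called higher in the knockout were 3 of the 4 genes, where 14.8% of all genes were called higher and 23.0% in either direction. Fewer cells of a type and less RNA per cell cannot be told apart in these bulk samples.

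In wild-type cells at 72 h the log2 differences from control were 2.31 ± 0.67 for Dab2 (4.94-fold, adjusted p = 0.0198), 1.85 ± 0.58 for Cubn (3.61-fold, adjusted p = 0.0293) and 1.06 ± 0.37 for Amn (2.08-fold, adjusted p = 0.0491). Again 3 of 4 genes were called higher, where 16.1% of all genes were called higher and 24.7% in either direction. Each 72 h array was above each control array for these 3 genes. No member was called without wild-type control replicate 1 (Dab2 1.70, adjusted p = 0.0752) or without wild-type RA 72 h replicate 2 (Dab2 2.00, adjusted p = 0.150), and Cubn alone was called without wild-type RA 72 h replicate 1 (2.43, adjusted p = 0.0387). Without both replicate 1 control arrays, no member was called in wild type (0 of 4, with 14.3% of all genes called higher), with 1.70 and adjusted p = 0.0850 for Dab2, 1.37 and 0.120 for Cubn, and 0.80 and 0.174 for Amn. With the replicate number as a block and the same arrays left out, all 4 were called higher (17.7% of all genes), at adjusted p = 0.00958 for Dab2, 0.0158 for Cubn, 0.0148 for Amn and 0.0237 for Lrp2. In knockout cells Dab2 (4.28), Cubn (3.43) and Amn (2.31) were called without those arrays too, where 12.8% of all genes were called higher.

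Lrp2 differed from control at 72 h by 0.48 ± 0.47 in knockout (adjusted p = 0.522, 95% interval -0.52 to 1.48) and by 0.79 ± 0.47 in wild type (adjusted p = 0.243, interval -0.21 to 1.79). The wild-type arrays disagreed on it. In replicate 1 the 72 h level was 0.924 times the control level, and in replicate 2 it was 1.97 times. Set against 8 h of RA instead, Lrp2 rose in wild type by 1.47 ± 0.47 (adjusted p = 0.0355), although the groups overlapped. This wild-type call was lost in 7 of 14 alternatives, arrays left out included. In knockout Lrp2 differed by 1.01 ± 0.47 without being called (adjusted p = 0.155).

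That comparison of 72 h with 8 h of RA called all 4 genes higher in wild type, where 14.1% of all genes were called higher, and 3 of 4 in knockout, where 12.7% were. Dab2 differed by 4.10 ± 0.67 in knockout (adjusted p = 0.000622) and 2.75 ± 0.67 in wild type (adjusted p = 0.00808). Cubn was at least 11.0-fold higher in knockout at 72 h, since all 3 arrays at 8 h lay at the floor (adjusted p = 0.000782), and differed by 1.87 ± 0.58 in wild type (adjusted p = 0.0310). Amn differed by 1.95 ± 0.37 in knockout (adjusted p = 0.00192) and 1.30 ± 0.37 in wild type (adjusted p = 0.0198). These values use the same 72 h arrays as the comparisons with control. Without wild-type RA 72 h replicate 2 none of the 4 genes was called in wild type, with Dab2 at 2.44 (adjusted p = 0.0875), and without wild-type RA 8 h replicate 1 or 3 there were 1 and 2 calls.

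No member was called after 8 h of RA in either genotype, where 0.957% of all genes were called in knockout and 0.904% in wild type. On the same arrays 6 of 10 early RA response genes rose in each genotype, where 0.861% of all genes were called higher in knockout and 0.790% in wild type. Among them was Stra8, a gene induced by RA in germ cells, which rose by 3.51 ± 0.27 in knockout (adjusted p = 4.1e-06) and 4.22 ± 0.27 in wild type (adjusted p = 6.8e-07). The log2 difference of Cubn was -0.02 ± 0.52 in knockout and -0.02 ± 0.52 in wild type, and the 95% interval of the wild-type value ran from -1.12 to 1.09. In knockout Cubn was at or near the floor in both groups, so a decrease would not have been measurable. Amn differed by 0.36 ± 0.33 in knockout and -0.25 ± 0.33 in wild type, and Dab2 by 0.13 ± 0.60 in knockout and -0.44 ± 0.60 in wild type. All these adjusted p were 0.914 or higher. No member was called without both replicate 1 control arrays either, where 0.618% of all genes were called in knockout and 0.830% in wild type. The wild-type differences were then -1.04 ± 0.61 for Dab2, -0.50 ± 0.36 for Amn and -0.49 ± 0.54 for Cubn. Those in knockout were 0.18 ± 0.61 for Dab2, 0.36 ± 0.36 for Amn and -0.02 ± 0.54 for Cubn. The RA arrays of replicate 1 stayed in, so the groups were no longer matched by replicate. With the replicate block in addition, the wild-type values were -0.76 ± 0.44 for Dab2, -0.29 ± 0.29 for Amn and -0.24 ± 0.40 for Cubn. The knockout values were 0.46 ± 0.44 for Dab2, 0.57 ± 0.29 for Amn and 0.23 ± 0.40 for Cubn.

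Lrp2 was lower after 8 h of RA than in control in all 6 same-number pairs, without being called. Its mean difference was -0.53 ± 0.42 in knockout (adjusted p = 0.881) and -0.68 ± 0.42 in wild type (adjusted p = 0.844). Replicate 1 gave most of it, with -1.12 in knockout and -1.62 in wild type, while the other pairs lay between -0.33 and -0.08. Without both replicate 1 control arrays, which are those with the low Socs3 signal, the difference of Lrp2 was -0.44 ± 0.49 in knockout and -0.53 ± 0.49 in wild type. The replicate 1 RA arrays, the lowest of their groups, stayed in that fit. With the replicate block in addition, the difference was -0.24 ± 0.27 in knockout and -0.33 ± 0.27 in wild type.

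**Figure D2:**
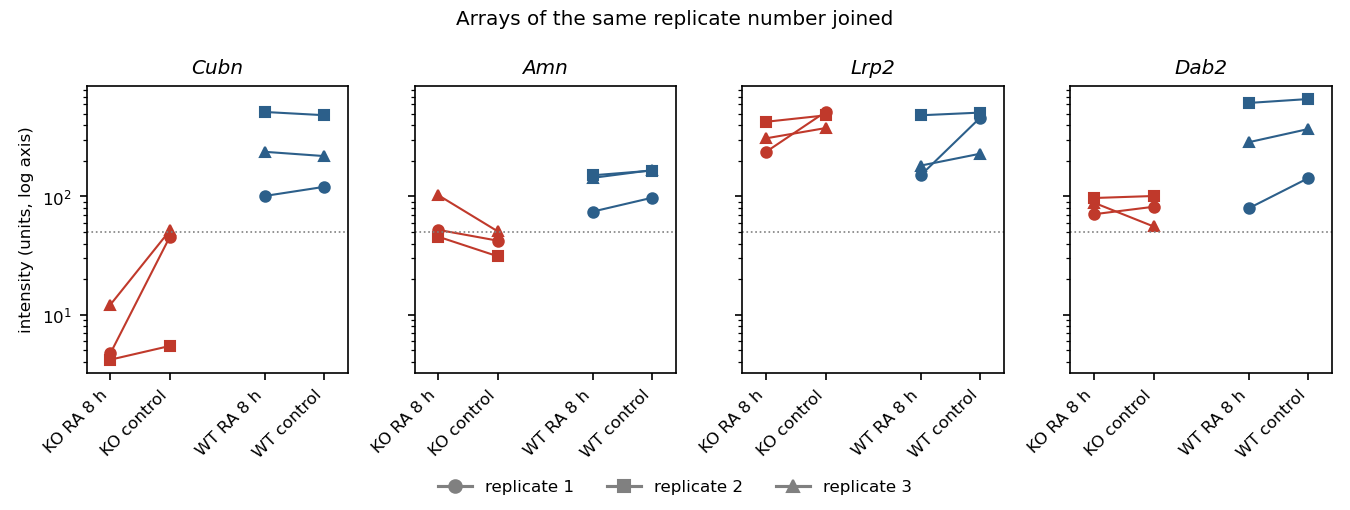
Signal (intensity units, log axis) after 8 h of RA and in control, with lines joining arrays of the same replicate number, for knockout (red) and wild type (blue); the dotted line is the floor of 50 units. For Cubn and Dab2 the wild-type lines lie far apart, with replicate 1 lowest and replicate 2 highest, and in Dab2 replicate 1 had 79.5 units after RA against 143 units in control, and for Lrp2 the replicate 1 lines are the steepest.

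Within wild type, the spread between replicates was large for Cubn and Dab2 and ran alike in both 8 h groups. Replicate 1 was the lowest and replicate 2 the highest of each group, with highest over lowest of 7.77 after RA and 4.67 in control for Dab2, and of 5.13 after RA and 4.03 in control for Cubn. In knockout Dab2 the same ratios were 1.37 after RA and 1.81 in control.

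Knockout control cells had less Cubn and Amn RNA than wild-type control cells. The log2 difference was -2.21 ± 0.52 for Cubn (adjusted p = 0.0232) and -1.47 ± 0.33 for Amn (adjusted p = 0.0188), and no knockout array reached the lowest wild-type array for either gene. For both genes 2 of the 3 knockout control arrays lay at the floor, and the highest had 51.6 units for Cubn and 50.7 units for Amn. The floor thus limits the size of these differences and the spread in knockout. Called lower were 2 of 4 genes, where 2.81% of all genes were called lower and 4.64% in either direction. Dab2 had a difference of -2.09 ± 0.60 with no overlap of the groups, but was not called (adjusted p = 0.0626), and was called with the replicate block (adjusted p = 0.00745), where 5.37% of all genes were called lower. Lrp2 differed by 0.27 ± 0.42 (adjusted p = 0.862, 95% interval -0.63 to 1.16).

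The calls for the control cells depend on few arrays. Without both replicate 1 control arrays Cubn stayed called (-2.69, adjusted p = 0.0474), Amn was not (-1.73, adjusted p = 0.0537) and nor was Dab2 (-2.73, adjusted p = 0.0633), where 0.733% of all genes were called lower. With the block in addition, all 3 were called lower, at adjusted p = 0.00302 for Cubn, 0.00582 for Amn and 0.00523 for Dab2 (2.98% of all genes). Leaving out wild-type control replicate 2, or any 1 of knockout control replicates 1 to 3, left no member called, with Cubn between -2.23 and -1.69 and Amn between -1.48 and -1.35. Without wild-type control replicate 3, Cubn alone was called, and without wild-type control replicate 1 all 3 were, Dab2 at -2.69 (adjusted p = 0.0268).

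After 8 h of RA the same comparison of genotypes called 1 of 4 genes, where 2.91% of all genes were called lower and 4.61% in either direction. Cubn was at least 4.64-fold lower in knockout (adjusted p = 0.0245), with its 3 knockout arrays at the floor. Amn had a log2 difference of -0.87 ± 0.33 (adjusted p = 0.179, or 0.0471 with the replicate block) and Dab2 of -1.51 ± 0.60 (adjusted p = 0.194, or 0.0423 with the block), and 5.83% of all genes were called lower with the block. Lrp2 differed by 0.41 ± 0.42 (adjusted p = 0.718). Any knockout array at 8 h of RA left out ended the call of Cubn, as did wild-type RA 8 h replicate 2 or 3, with adjusted p from 0.0617 to 0.105.

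At 72 h of RA no member was called between the genotypes, where 4.07% of all genes were called. The log2 difference of knockout from wild type was -0.63 ± 0.64 for Cubn (95% interval -1.98 to 0.73), -0.22 ± 0.41 for Amn (-1.09 to 0.65), -0.16 ± 0.73 for Dab2 (-1.72 to 1.40) and -0.05 ± 0.51 for Lrp2 (-1.14 to 1.05). The adjusted p were 0.726 for Cubn, 0.883 for Amn, 0.963 for Dab2 and 0.986 for Lrp2. With 2 arrays a group these intervals hold differences of more than 2-fold either way for Dab2 and Lrp2.

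Whether knockout and wild type responded differently was tested as an interaction, the knockout response minus the wild-type one. At 72 h it was 1.93 ± 0.94 for Dab2 (adjusted p = 0.932), 1.59 ± 0.82 for Cubn (adjusted p = 0.986), 1.25 ± 0.52 for Amn (adjusted p = 0.770) and -0.32 ± 0.66 for Lrp2 (adjusted p = 0.9995). None of the 4 was called, where 0.342% of all genes were. The values of Cubn and Amn use knockout control arrays at or near the floor. At 8 h it was 0.61 ± 0.47 for Amn, 0.58 ± 0.84 for Dab2, 0.15 ± 0.59 for Lrp2 and 0.00 ± 0.73 for Cubn, computed from floored values. The call rate there was 0.00%, with 0 of 11388 genes called by limma and 211 at an unadjusted p under 0.05. Leaving out both replicate 1 control arrays, the 72 h interaction was 2.57 ± 0.94 for Dab2 (adjusted p = 0.654), 2.06 ± 0.84 for Cubn (adjusted p = 0.783), 1.51 ± 0.56 for Amn (adjusted p = 0.676) and -0.37 ± 0.76 for Lrp2, where 0.0971% of all genes were called. The 8 h one was then 1.22 ± 0.86 for Dab2, 0.86 ± 0.51 for Amn, 0.47 ± 0.77 for Cubn and 0.09 ± 0.69 for Lrp2, and none was called. The larger fold changes of Cubn, Amn and Dab2 in the knockout at 72 h are therefore not shown to differ from those in wild type.

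**Figure D3:**
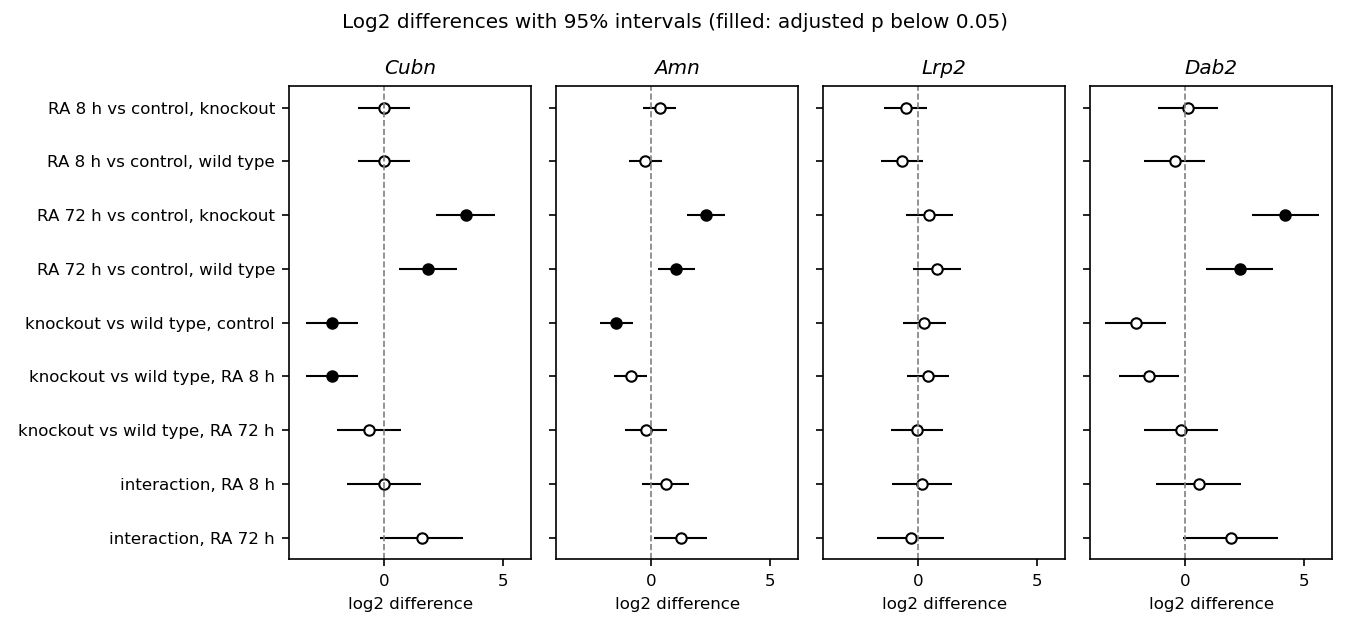
Log2 differences of the 4 genes with their 95% intervals, first group minus second, for the comparisons with control and between genotypes and for the interactions (knockout response minus wild-type response). Filled points have a limma adjusted p below 0.05. Cubn, Amn and Dab2 lie right of 0 at 72 h in both genotypes and left of 0 for knockout against wild type at 8 h, while the intervals of Lrp2 include 0 in every row shown.

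LIF withdrawal was tested over the 2 arrays without LIF against the 6 control arrays, with genotype as a term. None of the 4 genes was called, with 0.00% of 10476 genes called (0 genes) and 285 at an unadjusted p under 0.05. Lrp2 had the difference with the smallest error relative to its size, -1.01 ± 0.28 (adjusted p = 0.999), and with the replicate block it was -1.25 ± 0.21 and called lower (adjusted p = 0.00817), where 0.706% of all genes were called lower, 1.46% higher and 2.17% in either direction. Dab2 differed by -1.22 ± 0.57, Cubn by -1.12 ± 0.57 and Amn by -0.25 ± 0.32. Both arrays without LIF are of replicate 1, so the value with the block rests on the replicate 1 arrays alone. Because the LIF labels of replicate 1 are in doubt, the direction of these values is uncertain. Without the block, the control group may also mix cells with and without LIF.

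The other probe sets of the same genes were compared as features of their own, as the plot of all 10 probe sets shows. The other Cubn probe set, 1426990_at, had 211 to 290 units in knockout and 274 to 676 units in wild type at 72 h, against 19.9 to 52.3 units in knockout control and 49.0 to 232 units in wild-type control. Its difference at 72 h was 2.28 ± 0.64 in knockout (adjusted p = 0.0260) and 1.83 ± 0.64 in wild type (adjusted p = 0.0645). Between control cells its difference had the same sign without a call, at -1.25 ± 0.58 (adjusted p = 0.368). Between genotypes after 8 h of RA it was not called either, at -1.17 ± 0.58 (adjusted p = 0.404, or 0.114 with the replicate block).

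Dab2 had 4 probe sets. The other 3 were dim, with 2, 3 and 7 of the 18 arrays at 100 units or more, and their differences at 72 h were all above 0. Probe set 1430604_a_at differed by 2.77 ± 0.48 in knockout (adjusted p = 0.00120) and 1.84 ± 0.48 in wild type (adjusted p = 0.0159), and 1423805_at by 1.39 ± 0.26 in knockout (adjusted p = 0.00228) and 1.88 ± 0.26 in wild type (adjusted p = 0.000194). Probe set 1429693_at had 49.2 and 84.6 units in knockout and 105 and 154 units in wild type at 72 h. It was called in wild type (1.35 ± 0.26, adjusted p = 0.00220) and not in knockout (0.38 ± 0.26, adjusted p = 0.383). These wild-type arrays were its only ones at 100 units or more, and 1423805_at reached 100 units only on arrays at 72 h. Both thus passed the filter through groups where they were high, so their calls add no support for the rise of Dab2. None of these 3 was called between the control cells of the genotypes, with -0.97 ± 0.43 for 1430604_a_at and values at the floor on most arrays for the other two.

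Of the 3 Lrp2 probe sets, 1427133_s_at read above 100 units on all 18 arrays. It moved little from control at 72 h, by 0.51 ± 0.53 in knockout (adjusted p = 0.599) and 0.61 ± 0.53 in wild type (adjusted p = 0.502). Against 8 h of RA in wild type it differed by 1.14 ± 0.53 without a call (adjusted p = 0.178). Probe set 1452320_at, which stood for Lrp2, was not called there either when compared as its own feature (1.47 ± 0.48, adjusted p = 0.0506). The third, 1445901_at, stayed under 100 units on all arrays and was not tested. Amn had a single probe set, which in this fit over all probe sets was called at 72 h in knockout (adjusted p = 0.000777) and not in wild type (1.06 ± 0.38, adjusted p = 0.0699). The wild-type call of Amn was lost in 9 of 14 alternatives, arrays left out included.

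**Figure D4:**
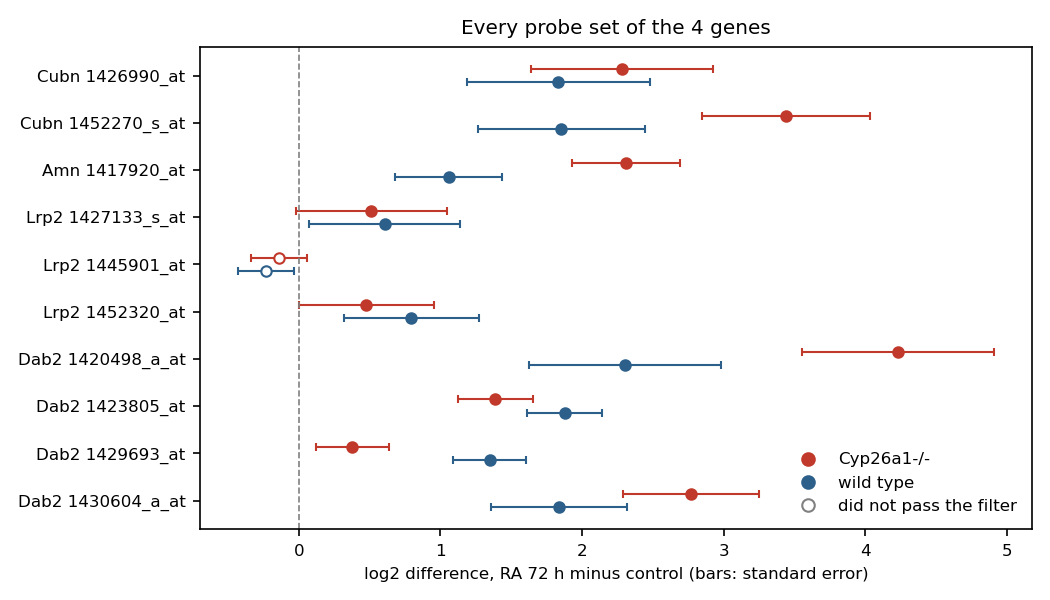
Log2 difference between 72 h of RA and control for each of the 10 probe sets, with bars of 1 standard error, in knockout (red) and wild type (blue); open symbols mark the probe set that did not pass the filter. All probe sets of Cubn, Amn and Dab2 lie right of 0 in both genotypes, and both Lrp2 probe sets that were tested lie between 0.48 and 0.79.

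Over the 18 arrays, the log2 levels of Cubn, Amn and Dab2 ran together and those of Lrp2 did not run with them as closely. The Pearson correlation was 0.97 between Cubn and Dab2, 0.93 between Amn and Dab2 and 0.93 between Cubn and Amn, against 0.61, 0.53 and 0.43 between Lrp2 and Dab2, Cubn and Amn. The points are arrays of 8 groups and share the contrast of 72 h with 8 h. Among 11387 other genes, Dab2 was the second closest to Cubn and Cubn the third closest to Dab2, while 630 was the best rank of any member among the genes most like Lrp2.

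The genes with the closest patterns were named by that correlation. For Cubn they were Srgn (0.97), the proteoglycan serglycin, which is also on the list of primitive endoderm markers, Dab2 and Ctsl (0.96), the lysosomal protease cathepsin L. For Dab2 they were Srgn (0.98), Klb (0.97), the co-receptor beta-klotho, and Cubn. Srgn had 1067 and 1223 units in knockout and 1280 and 2549 units in wild type at 72 h, against 3.33 to 57.2 units in knockout control and 39.5 to 737 units in wild-type control. For Amn they were Mtmr1 (0.96), a myotubularin-family phosphatase, Ctsl (0.95) and Psap (0.94), the precursor of the lysosomal saposins. For Lrp2 they were Tsc22d2 (0.91), Sbf2 (0.89) and Mmgt1 (0.88), none of which was among the closest 3 of another member. Tsc22d2 changed little at 72 h, with 715 and 735 units in knockout and 615 and 724 units in wild type, against 680 to 747 units in knockout control and 542 to 718 units in wild-type control.

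The other genes of the uptake machinery were described by lists at 72 h of RA, beside the share of all genes called (14.8% higher and 8.26% lower in knockout, 16.1% higher and 8.64% lower in wild type). Of 10 other endocytic adaptors and chaperones, 3 rose and 1 fell in knockout, and 4 rose and 1 fell in wild type. Lrpap1, the chaperone that escorts megalin and related receptors through the secretory pathway, rose by 1.49 ± 0.17 in knockout (adjusted p = 1.7e-05) and 1.24 ± 0.17 in wild type (adjusted p = 8.7e-05). The adaptor Numb and the actin motor Myo6, which moves endocytic vesicles, rose too, Numb by 0.84 ± 0.15 in knockout and 0.87 ± 0.15 in wild type, and Myo6 by 1.28 ± 0.42 in knockout and 1.44 ± 0.42 in wild type. Dab1, a relative of Dab2 that acts in reelin signalling, fell by 2.54 on the log2 scale in knockout (adjusted p = 1.8e-06), and was at least 8.98-fold lower in wild type, where both 72 h arrays lay at the floor (adjusted p = 2.2e-07). The median of the list was 0.35 in knockout and 0.50 in wild type, against 0.06 over all genes tested in each genotype.

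Among 19 genes of the clathrin coat and vesicle scission, 5 rose and 1 fell in knockout and 6 rose in wild type, with medians of 0.32 in knockout and 0.33 in wild type. Without both replicate 1 control arrays, 3 rose and 1 fell in wild type, where 14.3% of all genes were called higher and 6.98% lower. The clathrin heavy chain Cltc rose by 0.46 ± 0.11 in knockout (adjusted p = 0.00887) and 0.45 ± 0.11 in wild type (adjusted p = 0.00949), and Dnm1, a dynamin, by 2.04 ± 0.45 in knockout (adjusted p = 0.00441) and 1.60 ± 0.45 in wild type (adjusted p = 0.0176). Of 20 endosome and recycling genes, 5 rose and 1 fell in each genotype. Clcn5, the endosomal chloride transporter, rose by 1.96 ± 0.17 in knockout (adjusted p = 1.1e-06) and 1.85 ± 0.17 in wild type (adjusted p = 1.8e-06). The list median was 0.24 in knockout and 0.23 in wild type.

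Of 12 LDL receptor family members other than Lrp2, 6 rose in knockout and 3 in wild type, with 0 called lower in either and medians of 0.54 in knockout and 0.23 in wild type. Lrp1, the broad scavenging receptor of the family, rose 2.83-fold in knockout (adjusted p = 0.00283) and 2.26-fold in wild type (adjusted p = 0.0123). With both replicate 1 control arrays left out, 3 rose in knockout (12.8% of all genes were called higher) and 2 in wild type (14.3%). Among 13 genes for ligands of these receptors and for vitamin B12 handling, 5 rose and 1 fell in knockout, and 6 rose and 1 fell in wild type. Tcn2, the plasma carrier of vitamin B12, rose by 1.34 ± 0.20 in knockout (adjusted p = 0.000173) and 1.43 ± 0.20 in wild type (adjusted p = 8.9e-05). Folr1, a folate receptor, rose by 2.09 ± 0.23 in knockout (adjusted p = 1.2e-05) and 1.33 ± 0.23 in wild type (adjusted p = 0.000585), and Apoe, the lipid-carrying ligand of several family members, fell by 1.81 in knockout (adjusted p = 1.4e-06) and fell by 1.73 in wild type (adjusted p = 2.0e-06).

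**Figure D5:**
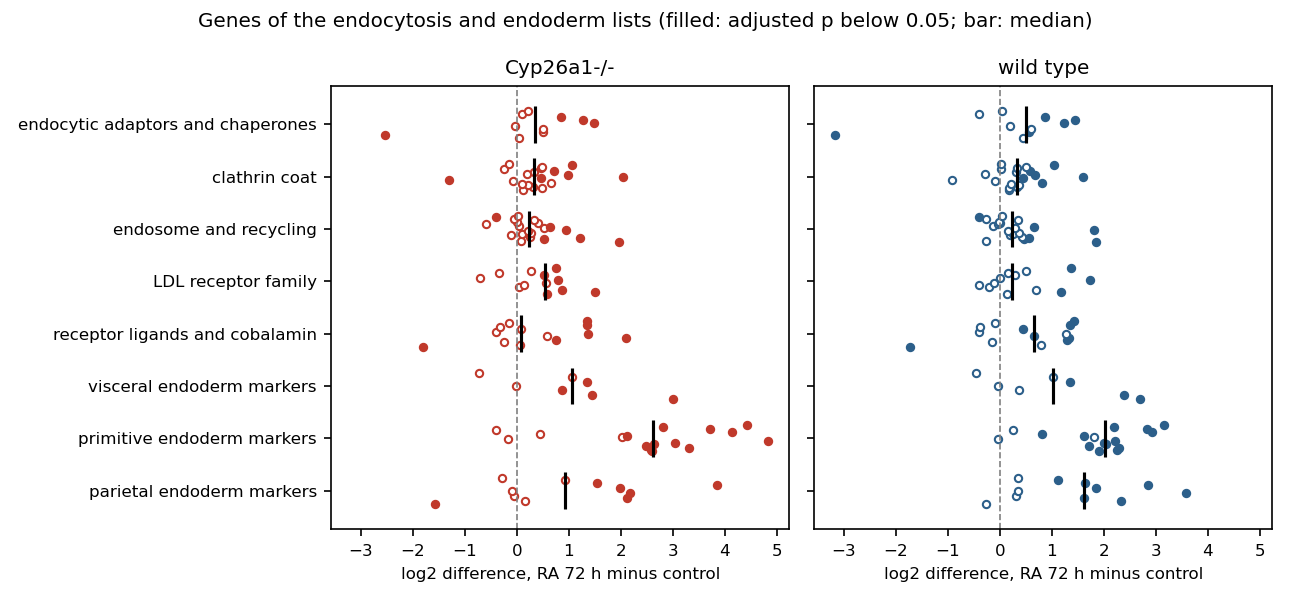
Log2 difference between 72 h of RA and control for each tested gene of 8 lists, in knockout (left) and wild type (right); filled points have a limma adjusted p below 0.05 and black bars are list medians. The primitive endoderm markers lie furthest right, with medians of 2.61 in knockout and 2.02 in wild type. The clathrin medians are 0.32 in knockout and 0.33 in wild type, and the endosome medians 0.24 and 0.23. The list of receptor ligands and cobalamin genes has medians of 0.09 in knockout and 0.65 in wild type.

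Most primitive endoderm markers rose at 72 h, as Cubn, Amn and Dab2 did, while the parietal and visceral endoderm lists rose in part. Of 16 primitive endoderm markers, 12 rose in knockout and 13 in wild type, and their summed signal was 28146 to 28826 units in knockout and 34535 to 37108 units in wild type, against 5860 to 9672 units in knockout control and 7841 to 14912 units in wild-type control. Gata6, an endoderm transcription factor, rose by 4.84 ± 0.37 in knockout (adjusted p = 4.1e-07) and 2.21 ± 0.37 in wild type (adjusted p = 0.000515). Pdgfra, a growth factor receptor of the primitive endoderm, was at least 17.6-fold higher in knockout, where all control arrays were at the floor, and rose by 2.93 ± 0.31 in wild type. Of 11 parietal endoderm markers, 5 rose and 1 fell in knockout and 7 rose in wild type. Over all genes, 14.8% were called higher and 8.26% lower in knockout, and 16.1% higher in wild type.

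Of 7 visceral endoderm markers tested, 4 rose in knockout (14.8% of all genes were called higher) and 3 in wild type (16.1%). Among them, Foxa1 was at least 8.00-fold higher in knockout and at least 6.47-fold in wild type. Rbp4, a plasma carrier of retinol and a ligand of megalin, rose by 1.36 ± 0.20 in knockout and 1.35 ± 0.20 in wild type. The others tested were not called in knockout, with Spink1 at -0.73, Hnf4a at -0.01 and Rhox5 at 1.07. The summed signal of the 18 markers on the table was 2603 to 2764 units in knockout and 2753 to 5526 units in wild type at 72 h, against 1200 to 1913 units in knockout control and 1409 to 5088 units in wild-type control. Between the control cells, 3 of 16 primitive endoderm markers were lower in knockout, where 2.81% of all genes were. They were Gata6 (-2.13 ± 0.33, adjusted p = 0.00236), Lamb1 (-1.28 ± 0.29, adjusted p = 0.0177) and Pdgfra (at least 2.06-fold lower, adjusted p = 0.0442). Without both replicate 1 control arrays 1 was lower, where 0.733% of all genes were. The part of any cell type in the results for the 4 genes was not tested.

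Markers of other cell types were less even. The summed signal of 13 fibroblast markers was 1136 to 1188 units in knockout and 2963 to 5908 units in wild type at 72 h, against 1027 to 1151 units in knockout control and 1003 to 1449 units in wild-type control, with Postn at the floor on all 18 arrays. Only 4 of these markers passed the filter. Acta2 reached 3757 units on its highest array, and Thy1, the next highest, 717 units, so a single gene can make up much of the sum. For 11 trophoblast markers the sums were 895 to 987 units in knockout and 2106 to 2149 units in wild type at 72 h, against 721 to 951 units in knockout control and 666 to 1095 units in wild-type control. Of the 15 markers of undifferentiated cells, 6 fell in knockout, and 7 fell and 1 rose in wild type. Over all genes, 8.26% were called lower in knockout, and 8.64% lower and 16.1% higher in wild type.

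Between control cells, Lrpap1 was also lower in knockout (-0.90 ± 0.15, adjusted p = 0.00364), the single call among 10 adaptors and chaperones. Over all genes 2.81% were called lower. Of the endosome genes 4 of 20 were lower, with Ctsl at -0.75 ± 0.12 (adjusted p = 0.00326) and Rab5c, an early endosome GTPase, at -0.92 ± 0.17 (adjusted p = 0.00592), and 2 were lower without both replicate 1 control arrays, where 0.733% of all genes were. None of 19 clathrin coat genes and none of 12 LDL receptor family members was called in the limma fit, and the median difference was -0.16 in the clathrin list and -0.0024 in the receptor family.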

How the data were processed

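The deposited values are intensities on a linear scale from the authors' MAS5 run, per the submitters' processing notes, with 1 value for each probe set on each array. No MAS5 version was given in the sources used here. Total RNA was extracted and biotin-labelled cRNA hybridised, per the labels' protocols. Arrays give no count depth: the number of arrays limits the precision.

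Each array was set to a 2%-trimmed mean of 500, which all deposited arrays already had, then floored at 50 and log2 transformed. A fold against a group with all arrays at the floor is written "at least". In the platform annotation 34958 probe sets had 1 symbol, 932 several and 9211 none listed, and 34754 matched a RefSeq record of GRCm38.p6. The probe set with the highest mean log2 over 18 arrays stood for a gene. A gene was tested when 2 arrays or more reached 100.

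limma 3.58.1 in R 4.3.3 (lmFit, eBayes with an intensity trend) fitted the 16 arrays of the 6 replicated groups with 10 residual degrees of freedom, and 8 arrays for LIF with 5. P-values are two-sided. The scripts were tested on simulated data. The labels do not say whether repeats were separate cultures, so the p-values cover only sample-to-sample spread that may be technical.

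Replicate numbers came from the titles, or for unnumbered titles from accession order. Numbers were used to pair the samples. The deviations from the group means correlated at 0.11 to 0.50 in all 22 same-number pairs of compared groups, and 20 had their best partner in the same number. These pairs reuse the same 16 arrays and are not independent. Between the 72 h groups, with 2 arrays each, both pairs have the same correlation by construction. The members and lists were chosen with earlier results of these data known. Named genes are the members, the 3 closest in correlation to each, up to 4 called genes of each list by adjusted p, Socs3 and Cyp26a1. Markers named in the checks of cell types (Pou5f1, Dppa3 and those of fibroblasts and visceral endoderm) were chosen after their values were seen. Alternatives were another floor, log transform, normalization, filter, feature set, sample set and the block, and arrays left out. No reference genome was used, and promoter windows are RefSeq's.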

Additional observations from a re-analysis of the deposited data

How the results depend on the processing

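The 3 calls in knockout cells at 72 h of RA against control and against 8 h were kept in number under each alternative and with each array left out (3 to 3 genes against control, 3 to 4 against 8 h over the alternatives). No member was called at 8 h of RA, between the genotypes at 72 h or in the interactions under any setting. Besides the main fit, the share of all genes called was computed only with the block or without the replicate 1 control arrays. Under the other settings a change in member calls cannot be set against that share. With a floor of 100, the genotype comparison called 0 members in control cells and 0 after 8 h of RA. Without a filter it called 0 and 0, and wild type at 72 h had 0 calls against control and 1 against 8 h. With only the groups compared in the fit, wild type at 72 h had 1 call against control and 2 against 8 h, and the control cells had 0 calls between genotypes. Without both replicate 1 control arrays, wild type at 72 h had 0 calls against control, where 14.3% of all genes were called higher. The control cells then had 1 between genotypes, where 0.733% of all genes were called lower. The replicate block gave 3 calls between genotypes after 8 h of RA, where 5.83% of all genes were called lower. It gave 3 as well when the replicate 1 control arrays were left out with the block (6.45%), an alternative chosen after seeing the data. For LIF the block gave 1 call, of Lrp2, from the replicate 1 arrays alone, where 0.706% of all genes were called lower. Otherwise the block changed only the calls of Dab2 between control cells and of Amn and Dab2 between genotypes after 8 h of RA. With 1 array left out, the counts ran from 0 to 2 for wild type at 72 h against control, from 0 to 4 against 8 h, from 0 to 3 between control cells and from 0 to 2 between genotypes after 8 h of RA. The lone 72 h array left in a group is then assumed to vary like the other groups.

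Some small differences became 0 or changed sign. With a floor of 100, Cubn at 8 h in knockout was 0 and Dab2 was -0.0045. Cubn at 8 h in knockout was 0.23 without the replicate 1 control arrays and with the block. Quantile normalization gave 0.019 for Cubn at 8 h in wild type, 0.015 for Lrp2 between genotypes at 72 h and -0.056 for the Cubn interaction at 8 h, which was -0.68 with log2 of the intensity plus 32. Amn without LIF was 0.013 with the replicate block. With arrays left out in turn, Cubn at 8 h in knockout ran from -0.023 to 0, and signs changed for Cubn at 8 h in wild type (-0.59 to 0.58), Dab2 at 8 h in knockout (-0.10 to 0.33) and wild type (-1.12 to 0.36), Amn at 8 h in wild type (-0.50 to 0.080), and Lrp2 between control cells (-0.094 to 0.48). At 72 h between genotypes they changed for Amn (-0.53 to 0.092), Lrp2 (-0.66 to 0.57) and Dab2 (-0.47 to 0.15), and in the interactions for Cubn (-0.60 to 0.58), Lrp2 (-0.18 to 0.66) and Dab2 (-0.23 to 1.25) at 8 h and Lrp2 (-0.93 to 0.30) at 72 h. The cause was not tested. Over all members, comparisons and settings 629 values kept sign and side of the threshold, 59 lost the call, 12 gained it and 31 became 0 or changed sign. Signal near background limits Cubn and Amn in knockout cells and most Dab2 probe sets.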
